A study of Mus musculus with 6 samples.

Results

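Pyruvate enters the mitochondrial matrix through the mitochondrial pyruvate carrier and is turned into acetyl-CoA by the pyruvate dehydrogenase complex, which kinases switch off by phosphorylation and phosphatases switch on again. Acetyl-CoA is then burned in the tricarboxylic acid (TCA) cycle, which feeds the respiratory chain. In fat tissue the same enzymes also supply citrate for making fatty acids, and in brown adipocytes the cycle fuels heat production. The 33 genes described here encode this route step by step, and they were taken by name from a deposited table of 21959 genes. The list holds the 2 carrier subunits, 5 genes of the pyruvate dehydrogenase complex, its 4 kinases, 3 genes of its phosphatases, 3 genes of side reactions and 16 genes of the cycle itself.

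The expression of these genes was measured by bulk RNA-seq of full-thickness dorsal skin from male C57BL/6 mice that were shaved in telogen, the resting phase of the hair cycle, at 7 weeks of age. The vehicle group (n = 3) received 30% dipropylene glycol in water, and the rebamipide group (n = 3) received 3% rebamipide, a drug used to protect the stomach lining, on the shaved skin daily for 7 days. The question was how rebamipide alters gene expression in skin before hair regrowth. The labels give 3 libraries per group and no litter or batch.

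The libraries differed in their tissue markers as well as in treatment. Each vehicle library held 38676018 to 39915276 counts and each rebamipide library 32709801 to 34706852. Levels are given as CPM, the counts relative to the library size after TMM scaling by edgeR, with the 3 libraries of a group in order of replicate number, and 3 counts, the limit that a count of 0 allows, correspond to 0.0601 to 0.117 CPM. Expression of Krt14, the keratin of basal keratinocytes, was 361, 238 and 0 CPM in the rebamipide libraries against 523 to 1310 CPM in the vehicle libraries. The third rebamipide library thus lacked a defining skin marker, and all 8 markers of the growing hair follicle were at 0 in it and 6 of 8 were at 0 in the second. Ucp1, the uncoupling protein of brown adipocytes, was at 0 in all vehicle libraries and at 2670, 8590 and 5750 CPM in the rebamipide libraries. In bulk tissue, more cells of a type and more RNA per cell cannot be told apart. Tissue content and treatment differed together between these groups. A difference in the tissue taken therefore cannot be told apart from an effect of rebamipide, and it was not tested. Below, a gene that rose is one with a higher level in the rebamipide libraries than in the vehicle libraries.

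Rebamipide-treated skin had higher levels of nearly the whole pathway. In the vehicle libraries the 33 genes took 0.373%, 0.484% and 0.579% of all counts, and in the rebamipide libraries they took 1.875%, 2.576% and 2.727%. All 33 genes passed the expression filter, through levels of at least 68 counts in every library. With edgeR's quasi-likelihood test and Benjamini-Hochberg adjustment over the 14875 genes tested, 31 of 33 passed an adjusted p-value of 0.05 and were higher, where 14.1% of all genes tested were higher. Of the 33 genes 0 were lower by that test, where 6.51% of all genes were lower, and 2 genes (Pdk3 and Pdp1) were lower at an unadjusted p-value under 0.05. DESeq2 called both of these lower and limma-voom called Pdk3. At the study's looser cutoffs (unadjusted p-value below 0.05, log2 fold change past 1 in either direction), edgeR called 31 genes higher against a background of 14.3% and 1 gene, Pdk3, lower against a background of 14.5%.

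The groups did not overlap for any of the 33 genes. The rebamipide libraries were all above the vehicle libraries for 31 genes, against 24.5% of all genes tested, and all below them for 2 genes, against 24.0%. The median log2 fold change of the 33 genes was 2.77, and that of all genes tested was -0.175. When libraries were scaled by total counts alone, the medians were 2.14 and -0.778, and Pdpr, Pcx and Pck2 no longer passed.

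**Figure D1:**
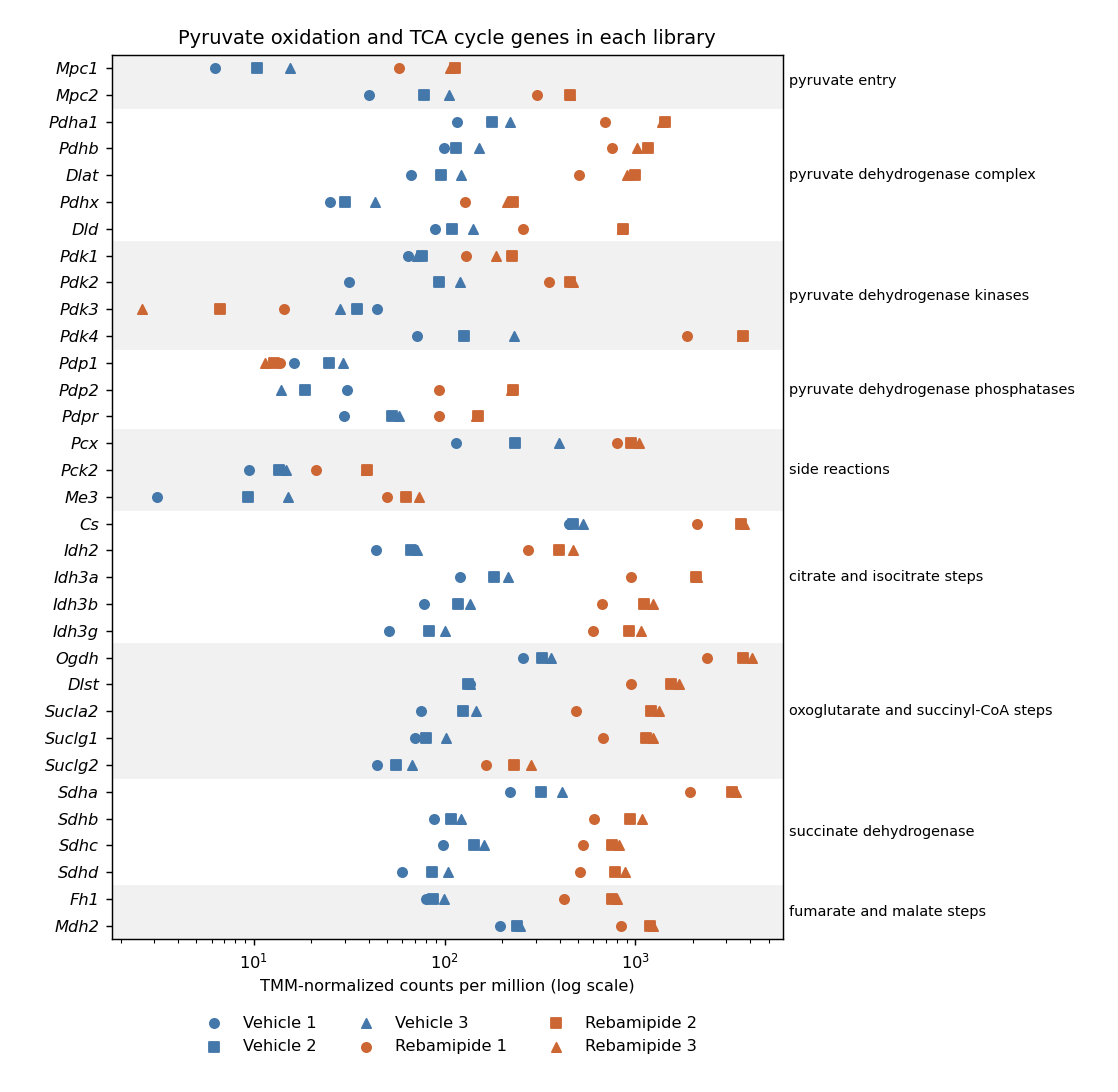
TMM-normalized CPM of the 33 genes on a log axis, ordered by step of the pathway, with 1 point per library, blue for vehicle and orange for rebamipide, and marker shape for the replicate number. For 31 genes the 3 orange points lie to the right of the 3 blue points, and for Pdk3 and Pdp1 they lie to the left.

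The count of 31 depended on single libraries in edgeR. Without the second vehicle library or without the second rebamipide library, edgeR called 0 of the 33 genes higher, while DESeq2 called 31 in both fits and limma-voom called 17 and 18. Under the study's unadjusted thresholds 31 genes were higher in each of these fits. Without the third rebamipide library, which lacked Krt14, 24 genes were higher, and Dld, Pdk1, Pdk2, Pdpr, Pcx, Pck2 and Me3 no longer passed. Leaving out the first vehicle library removed Dld, Pcx and Pck2, leaving out the third vehicle library removed Pck2, and leaving out the first rebamipide library removed no gene.

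Within each group the 33 genes followed a similar order of libraries. The first vehicle library was the lowest of its group for 30 genes and the third was the highest for 29. The first rebamipide library was the lowest of its group for 31 genes. The first library of each group was also the lowest of its group in the summed level of brown adipocyte markers, at 218 CPM for the first vehicle library and 4880 CPM for the first rebamipide library, and of general adipocyte markers, at 2170 and 14000 CPM. In fast skeletal muscle markers the first vehicle library was the lowest of its group, at 6350 CPM, and the first rebamipide library the highest of its group, at 41800 CPM.

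Both subunits of the mitochondrial pyruvate carrier rose. Mpc1 was at 6.29, 10.4 and 15.4 CPM with vehicle and at 57.9, 113 and 107 CPM with rebamipide, a log2 fold change of 3.12 ± 0.44 (SE; adjusted p = 0.0105, edgeR). Mpc2 was at 40.1, 77.6 and 105 CPM and at 304, 456 and 456 CPM, a log2 fold change of 2.45 ± 0.41 (SE; adjusted p = 0.0146, edgeR). The carrier works as a heterodimer of the 2 proteins. The ratio of their FPKM (counts relative to the gene's length and the library's total, so that genes can be compared) was 0.473 to 0.553 with vehicle and 0.672 to 0.873 with rebamipide, without overlap.

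All 5 genes of the pyruvate dehydrogenase complex rose, with log2 fold changes from 2.53 to 3.08. Pdha1, the E1 alpha subunit that carries the regulatory phosphorylation sites, was at 116, 178 and 221 CPM with vehicle and at 695, 1430 and 1380 CPM with rebamipide. Its log2 fold change was 2.77 ± 0.42 (SE; adjusted p = 0.0121, edgeR). Pdhb, the E1 beta subunit, had a log2 fold change of 3.01 ± 0.31. Dlat, the E2 core that hands acetyl groups to coenzyme A, had one of 3.08 ± 0.39, and Pdhx, which anchors E3 to the core, one of 2.53 ± 0.33. Dld, the E3 subunit shared with the oxoglutarate dehydrogenase complex, varied most of the 5, at 258 CPM in the first rebamipide library and 857 and 854 CPM in the others, with a log2 fold change of 2.54 ± 0.51. The first rebamipide library was still above the highest vehicle library, at 140 CPM.

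The 4 pyruvate dehydrogenase kinases differed in size and sign of their fold changes. Pdk4, the isoform known to be induced in fasting and fatty acid use, was at 71.6, 126 and 230 CPM with vehicle and at 1860, 3650 and 3630 CPM with rebamipide. This 21.4-fold difference, a log2 fold change of 4.42 ± 0.59 (SE; adjusted p = 0.0101, edgeR), was the largest of the 33 genes. Among them Pdk4 was the 10th most abundant transcript by FPKM in vehicle skin, at 49.9 ± 27.0 (SD, n = 3), and the most abundant in rebamipide skin, at 682 ± 166. Pdk2, a widely expressed isoform, rose from 31.5, 92.9 and 121 CPM to 352, 455 and 470 CPM, a log2 fold change of 2.38 ± 0.51 (SE; adjusted p = 0.0265, edgeR). Pdk1, a known target of hypoxia signalling, rose least of the 31 genes, from 64.1, 75.7 and 72.0 CPM to 129, 225 and 185 CPM, a log2 fold change of 1.35 ± 0.25 (SE; adjusted p = 0.0191, edgeR).

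Pdk3 had the opposite direction. It was at 44.4, 34.8 and 28.2 CPM with vehicle and at 14.3, 6.63 and 2.60 CPM with rebamipide. The groups did not overlap, and the log2 fold change was -2.19 ± 0.62 (SE; adjusted p = 0.0523, edgeR), which missed the threshold. DESeq2 gave an adjusted p of 0.00221, limma-voom 0.0287, and the adjusted p-value ranged from 1.78e-08 to 0.175 over all 29 alternatives, with the same direction in each. Its lowest level was in the third rebamipide library, where basal keratinocyte markers were also lowest, and the part of keratinocyte content in this difference was not tested. In the deposited table Pdk4 lies on chromosome 6, 5483351 to 5496309 on the minus strand, and Pdk3 on chromosome X, 92808213 to 92875807 on the minus strand, in build GRCm39 per the submitters' processing notes.

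Pdk4 made up most of the kinase transcripts in rebamipide skin. It held 36.4%, 40.6% and 52.8% of the summed FPKM of the 4 kinases with vehicle and 79.9%, 85.5% and 85.7% with rebamipide. Pdk3 held 31.0%, 15.3% and 8.9% with vehicle and 0.8%, 0.2% and 0.1% with rebamipide. The share of Pdk2 was 27.3% ± 8.3 and 13.7% ± 2.7 (SD, n = 3), and that of Pdk1 was 11.1% ± 3.6 and 2.3% ± 0.3. So Pdk1 and Pdk2 took smaller shares although their own levels rose. The summed FPKM of the 4 kinases was 71.4, 109 and 150 with vehicle and 615, 906 and 912 with rebamipide.

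**Figure D2:**
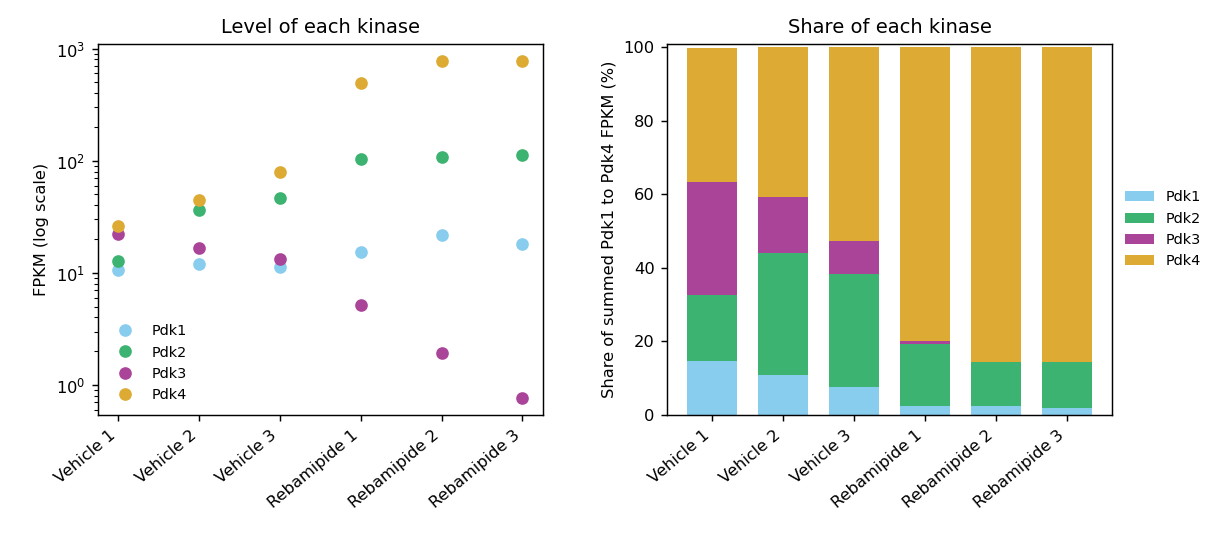
Left, FPKM of Pdk1 to Pdk4 in each library on a log axis. Right, stacked bars of the share of each kinase in the summed FPKM of the 4, in percent. Pdk4 holds 36.4% to 52.8% with vehicle and 79.9% to 85.7% with rebamipide, and Pdk3 is the only kinase whose FPKM is lower in every rebamipide library than in any vehicle library.

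The ratios between isoforms, which do not depend on how libraries are scaled, also separated the groups. Pdk4/Pdk2 was 1.23 to 2.05 with vehicle and 4.75 to 7.21 with rebamipide, 3.82-fold higher. Pdk3/Pdk2 was 0.287 to 1.74 and 0.00682 to 0.0503, and Pdk1/Pdk2 was 0.242 to 0.826 and 0.149 to 0.201. Of 8 ratios compared, 7 did not overlap between the groups, each with p = 0.1 in a two-sided exact permutation test, the smallest value that 3 against 3 libraries allow. After Benjamini-Hochberg adjustment over the 8 ratios these permutation p-values were 0.114, so none could pass 0.05. The ratios of Pdk4, Pdk3 and Pdk1 share Pdk2 and are not independent. Of all single genes tested, 24.5% were higher and 24.0% lower without overlap, and the share over other pairs of genes was not computed.

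The sequences before the starts of the kinase genes are shown because their fold changes had both signs. They are the 250 bases upstream of the start in the RefSeq promoter table, build GRCm38.p6, given on the strand of the gene, with the palindromic E-box CACGTG in capitals where it occurs. Pdk4 is chr6:5496279-5496528 on the minus strand, Pdk3 is chrX:93832151-93832400 on the minus strand, Pdk2 is chr11:95041372-95041621 on the minus strand (the more distal of 2 listed starts, whose first bases were not found in a transcript of the reference annotation) and Pdk1 is chr2:71872974-71873223 on the plus strand (the first of 2 listed starts).
Pdk4: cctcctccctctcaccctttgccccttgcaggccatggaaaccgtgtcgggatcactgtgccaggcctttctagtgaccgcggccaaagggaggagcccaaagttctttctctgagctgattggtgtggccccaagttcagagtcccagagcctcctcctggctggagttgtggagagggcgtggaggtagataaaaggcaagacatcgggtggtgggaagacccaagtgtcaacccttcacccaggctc
Pdk3: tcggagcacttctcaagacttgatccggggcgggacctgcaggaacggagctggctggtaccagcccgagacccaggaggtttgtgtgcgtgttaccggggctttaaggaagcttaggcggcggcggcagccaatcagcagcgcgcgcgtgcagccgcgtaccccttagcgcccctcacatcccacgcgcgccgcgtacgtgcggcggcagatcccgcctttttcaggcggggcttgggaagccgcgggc
Pdk2: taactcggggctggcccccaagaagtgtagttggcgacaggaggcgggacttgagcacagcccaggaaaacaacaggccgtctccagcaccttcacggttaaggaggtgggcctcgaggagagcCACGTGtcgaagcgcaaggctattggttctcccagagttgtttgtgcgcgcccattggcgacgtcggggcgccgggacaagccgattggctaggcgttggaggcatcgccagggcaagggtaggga
Pdk1: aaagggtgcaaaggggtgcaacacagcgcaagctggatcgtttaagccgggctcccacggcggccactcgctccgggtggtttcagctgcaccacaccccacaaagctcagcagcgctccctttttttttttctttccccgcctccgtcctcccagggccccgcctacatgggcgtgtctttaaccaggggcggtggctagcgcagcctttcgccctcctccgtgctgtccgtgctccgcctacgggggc
The Pdk3 stretch held 29 CpG dinucleotides at 67.6% GC, and the Pdk4 stretch held 6 at 58.8% GC. The Pdk2 stretch held 1 E-box, and the other 3 stretches held none of the 6 motifs searched. The stretch before the other Pdk2 start, whose first bases were found in a transcript, also held none of them.

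The fold changes of the phosphatases, which reverse the kinases, also had both signs. Pdp2 was at 30.7, 18.6 and 13.8 CPM with vehicle and at 93.6, 229 and 224 CPM with rebamipide, a log2 fold change of 3.11 ± 0.48 (SE; adjusted p = 0.0125, edgeR). Pdp1, the other catalytic subunit, was at 16.2, 24.7 and 29.4 CPM and at 13.7, 12.8 and 11.5 CPM, a log2 fold change of -0.88 ± 0.28 (SE; adjusted p = 0.0686, edgeR), which missed the threshold without overlap of the groups. Its adjusted p-value was 0.0293 with DESeq2 and 0.0939 with limma-voom, and it ranged from 4.68e-06 to 0.255 over the alternatives. Pdpr, a regulatory subunit, rose with a log2 fold change of 1.47 ± 0.33 (SE; adjusted p = 0.0292, edgeR). Pdp2/Pdp1 was 0.372 to 1.50 with vehicle and 5.40 to 15.5 with rebamipide. The summed FPKM of Pdp1 and Pdp2 was 10.8 to 11.5 and 18.1 to 32.1, a smaller difference than that of the kinases.

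The 3 genes of side reactions rose, with a median log2 fold change of 1.90. Pcx, pyruvate carboxylase, which makes oxaloacetate from pyruvate, was at 115, 233 and 398 CPM with vehicle and at 800, 951 and 1040 CPM with rebamipide. Its log2 fold change was 1.90 ± 0.47 (SE; adjusted p = 0.0390, edgeR). Pck2, mitochondrial phosphoenolpyruvate carboxykinase, rose by 1.39 ± 0.33 and Me3, a mitochondrial malic enzyme, by 2.76 ± 0.57 on the log2 scale. Pcx/Pdha1, the ratio of the enzymes that use pyruvate for oxaloacetate and for acetyl-CoA, was 0.778, 1.03 and 1.42 with vehicle and 0.904, 0.521 and 0.588 with rebamipide. These groups overlapped (p = 0.2, two-sided exact permutation test, and 0.200 after adjustment over the 8 ratios).

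All 5 genes of the citrate and isocitrate steps rose, with a median log2 fold change of 3.18. Cs, citrate synthase, was at 449, 472 and 531 CPM with vehicle and at 2110, 3570 and 3690 CPM with rebamipide, a log2 fold change of 2.69 ± 0.34 (SE; adjusted p = 0.00993, edgeR). By FPKM it was the most abundant of the 33 genes in vehicle skin, at 104 ± 6.45 (SD, n = 3), and the 5th in rebamipide skin, at 427 ± 77.8. The 3 subunits of NAD-dependent isocitrate dehydrogenase, Idh3a, Idh3b and Idh3g, rose by 3.31 ± 0.45, 3.18 ± 0.38 and 3.46 ± 0.39 on the log2 scale, within 0.28 of each other. Idh2, the NADP-dependent enzyme of the matrix, rose by 2.65 ± 0.32. Idh2/Idh3a was 0.654 to 0.716 with vehicle and 0.371 to 0.566 with rebamipide, without overlap.

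All 5 genes of the oxoglutarate and succinyl-CoA steps rose, with a median log2 fold change of 3.37. Ogdh, the E1 subunit of oxoglutarate dehydrogenase, was at 256, 325 and 361 CPM with vehicle and at 2360, 3670 and 4090 CPM with rebamipide. Its log2 fold change was 3.43 ± 0.36 (SE; adjusted p = 0.00939, edgeR). Dlst, the E2 subunit, was nearly the same in all vehicle libraries, at 136, 132 and 135 CPM, and was at 943, 1530 and 1700 CPM in the rebamipide libraries, a log2 fold change of 3.37 ± 0.32. Suclg1, the alpha subunit of succinyl-CoA synthetase, rose by 3.60 ± 0.35, the largest value after Pdk4.

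The 2 alternative beta subunits of succinyl-CoA synthetase both rose. Sucla2, which makes the enzyme ADP-forming, was at 75.4, 125 and 146 CPM with vehicle and at 491, 1210 and 1330 CPM with rebamipide, a log2 fold change of 3.13 ± 0.49 (SE; adjusted p = 0.0130, edgeR). Suclg2, which makes it GDP-forming, was at 44.0, 55.9 and 67.4 CPM and at 164, 231 and 283 CPM, a log2 fold change of 2.02 ± 0.29 (SE; adjusted p = 0.0107, edgeR). Suclg2/Sucla2 was 0.385 to 0.503 with vehicle and 0.165 to 0.289 with rebamipide, a 2.06-fold lower ratio without overlap.

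**Figure D3:**
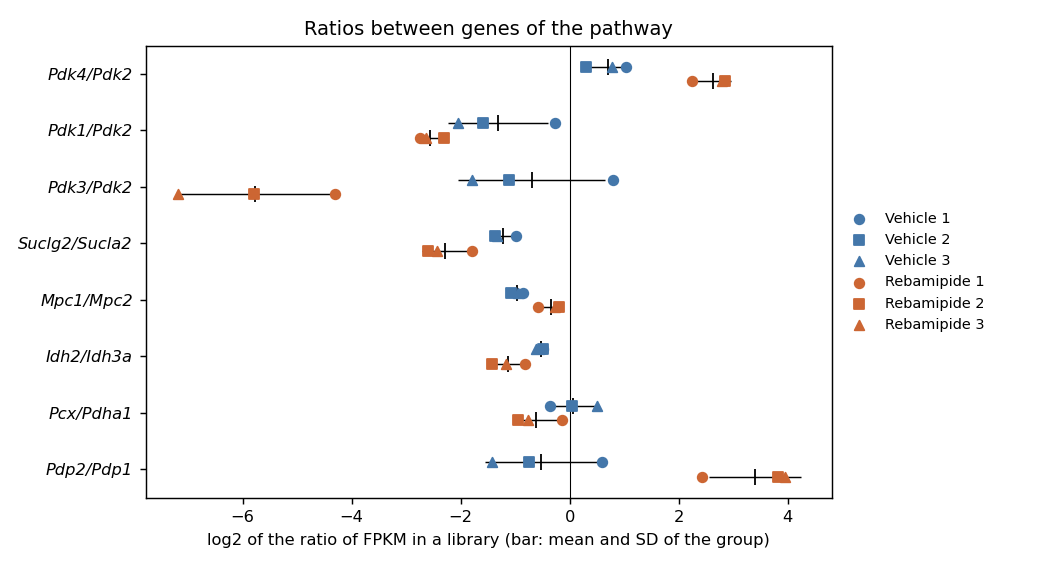
log2 of 8 ratios of FPKM between genes of the pathway, with 1 point per library, blue for vehicle and orange for rebamipide, and black ticks and bars for the mean and SD of each group (n = 3). The groups overlap only for Pcx/Pdha1, and the widest gaps are those of Pdk3/Pdk2 and Pdp2/Pdp1.

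The 4 subunits of succinate dehydrogenase, which is both a cycle enzyme and complex II of the respiratory chain, rose by 2.39 to 3.15 on the log2 scale. Sdha, the flavoprotein, was at 221, 321 and 410 CPM with vehicle and at 1930, 3190 and 3360 CPM with rebamipide, a log2 fold change of 3.15 ± 0.40 (SE; adjusted p = 0.00993, edgeR). Sdhb, the iron-sulfur subunit, rose by 3.04 ± 0.32. Of the membrane anchors, Sdhd rose by 3.12 ± 0.35 and Sdhc by 2.39 ± 0.31. Fh1, fumarase, was at 80.3, 86.6 and 99.8 CPM and at 424, 755 and 799 CPM, a rise of 2.89 ± 0.32. Mdh2, mitochondrial malate dehydrogenase, closes the cycle and rose by 2.26 ± 0.27 (adjusted p = 0.00958, edgeR), from 195, 240 and 249 CPM to 842, 1190 and 1230 CPM. Its rank by FPKM among the 33 genes went from 4 in vehicle skin to 10 in rebamipide skin.

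**Figure D4:**
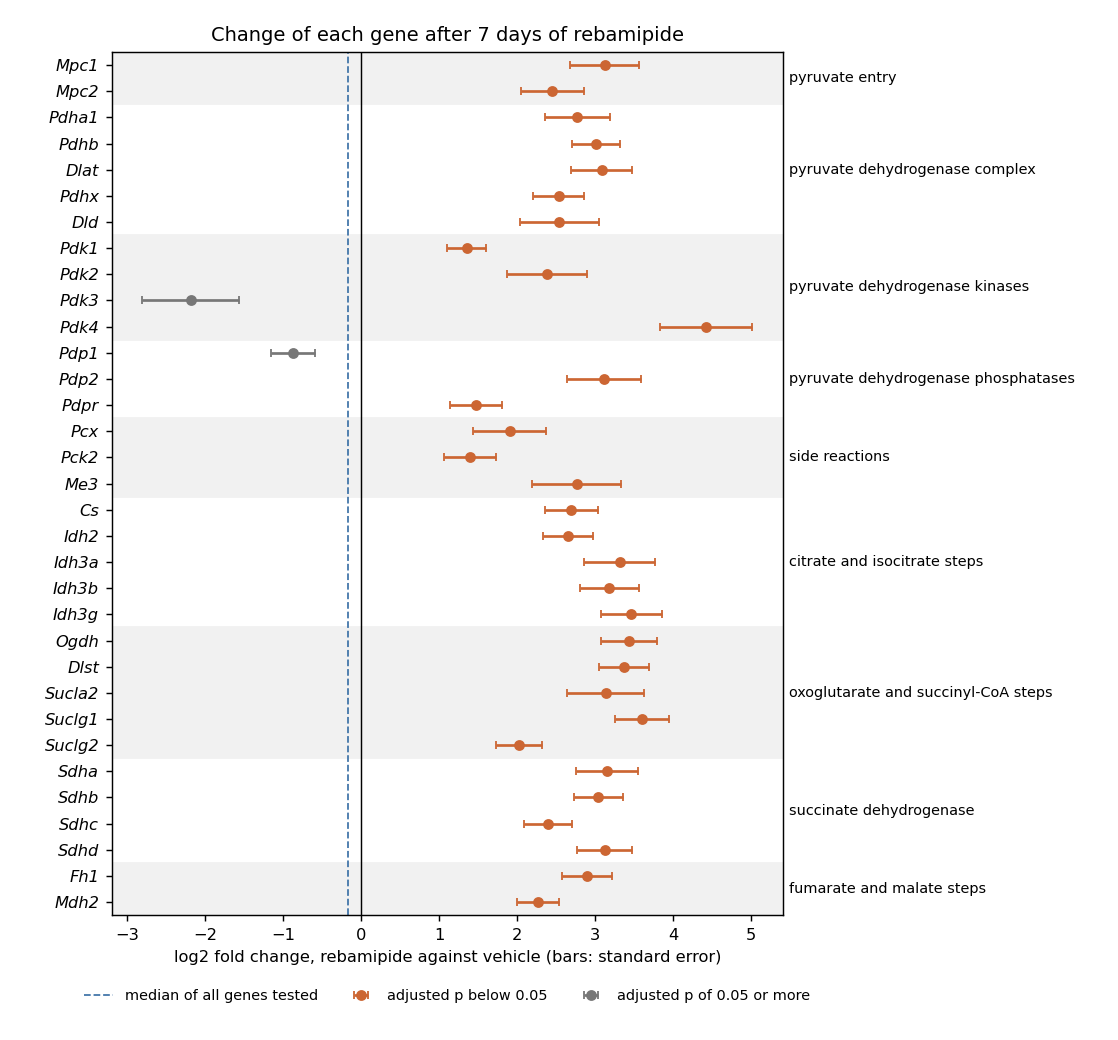
Fitted log2 fold change of each gene, rebamipide against vehicle, with its standard error, ordered by step of the pathway, in orange where the adjusted p-value from edgeR was under 0.05 and in grey otherwise. The dashed line is the median of all genes tested, -0.175, and Pdk3 and Pdp1 are the 2 genes to the left of it.

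In the promoter table, 39 upstream windows of 30 of the 33 genes were found (Idh3a, Pdp1 and Sdhc were not matched), and they had a median GC content of 61.2% and 17 CpG dinucleotides, against 52.4% and 6 over all 32851 windows. Windows of 1 gene can overlap, and Ogdh alone had 6. Motifs were searched on both strands in the 250 upstream bases. The cyclic AMP response element TGACGTCA was in 5 windows of 3 genes (Mdh2, Ogdh and Pdpr), 12.8% against 1.55% of all windows. The E-box CACGTG was in 7 windows of 5 genes (Ogdh, Pcx, Pdk2, Pdp2 and Pdpr), 17.9% against 6.02%, and the NRF1 core GCGCATGC was in 3 windows of Ogdh and Sdhb, 7.69% against 2.26%. For each of these motifs, overlapping windows of Ogdh share a site, so the same site was counted more than once. Each motif contains CpG, and the share over all windows was not matched for CpG content.

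The ETS motif CCGGAAG was in 3 windows, those of Idh3g, Mpc1 and Sdhd, 7.69% against 6.91%. The nuclear receptor core AGGTCA, which also lies within the longer estrogen-related receptor motif, was in 4 windows, of Fh1, Mpc1, Sdhb and Sucla2, 10.3% against 14.0%. The longer motif TCAAGGTCA was in 0 windows, against 0.387%. The upstream stretches of Mdh2 (chr5:135778399-135778648, plus strand) and Sdhb (chr4:140961021-140961270, plus strand, build GRCm38.p6) are shown as examples of a cyclic AMP response element and of an NRF1 core on the opposite strand with AGGTCA before it, with the motifs in capitals.
Mdh2: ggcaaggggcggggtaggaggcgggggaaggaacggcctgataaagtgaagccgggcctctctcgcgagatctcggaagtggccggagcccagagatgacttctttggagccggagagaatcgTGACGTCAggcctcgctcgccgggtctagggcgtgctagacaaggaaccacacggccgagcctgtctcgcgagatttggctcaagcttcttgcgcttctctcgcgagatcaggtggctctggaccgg
Sdhb: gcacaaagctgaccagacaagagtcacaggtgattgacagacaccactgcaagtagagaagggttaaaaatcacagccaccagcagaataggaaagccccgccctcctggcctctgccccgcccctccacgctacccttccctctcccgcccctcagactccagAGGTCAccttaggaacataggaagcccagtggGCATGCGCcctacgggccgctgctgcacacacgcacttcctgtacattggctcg
These are matches of letters in a window of the reference, and no binding was measured.

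Other mitochondrial enzymes serve the cycle and its cofactors. Of 18 tested, 12 were higher and 0 lower by edgeR, with a median log2 fold change of 1.42, and none of the 18 was lower at an unadjusted p-value under 0.05. DESeq2 called 14 higher and 0 lower. Sirt3, the deacetylase of the matrix, and Lipt1, which attaches the lipoyl groups that Dlat and Dlst need, rose by 3.20 ± 0.37 and 2.70 ± 0.37. The smallest values were those of Ogdhl, Gpt2 and Me2, at -2.01 ± 1.15, -0.66 ± 0.49 and -0.52 ± 0.33, and none of the 3 passed. The other malic enzyme of the matrix, Me3, rose, and the difference between Me2 and Me3 was not tested.

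Of the 11 genes listed as cytosolic counterparts, which include the mitochondrial D-lactate dehydrogenase Ldhd, 5 (Ldhd among them) were higher and 0 lower by edgeR (0 lower at an unadjusted p-value under 0.05, and 8 higher and 0 lower by DESeq2), with a median of 1.48. Pck1, the cytosolic carboxykinase that feeds glycerol synthesis in fat, rose from 56.7, 67.6 and 173 CPM to 3370, 6380 and 8050 CPM, a log2 fold change of 5.90 ± 0.71 (SE; adjusted p = 0.00953, edgeR), against 1.39 for its mitochondrial form Pck2. The lactate dehydrogenases Ldhb and Ldhd rose by 3.39 ± 0.46 and 3.36 ± 0.57, and Ldha, with a log2 fold change of 0.81 ± 0.44, did not pass. Got1 and Me1 had log2 fold changes of 0.00 ± 0.68 and 0.51 ± 0.43. Of 5 carriers of cycle intermediates tested, the citrate carrier Slc25a1 and the oxoglutarate carrier Slc25a11 rose, by 1.59 ± 0.35 and 1.55 ± 0.25. By edgeR 0 carriers passed as lower, and 1 was lower at an unadjusted p-value under 0.05 and by DESeq2. This was Slc25a13, an aspartate/glutamate carrier, at -2.47 ± 0.71 (adjusted p = 0.0548, edgeR), while Slc25a12 and Slc25a10 had log2 fold changes of -0.49 ± 0.97 and -0.81 ± 0.36.

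Glycolysis, which supplies pyruvate, and the acyl-CoA dehydrogenases were counted beside the pathway. Of 16 glycolysis genes, 5 were higher and 0 lower by edgeR, with a median log2 fold change of 0.56, and 1 (Aldoc, at -1.20 ± 0.40) was lower at an unadjusted p-value under 0.05 and by DESeq2. Pfkl, Eno1, Pgam1, Gpi1 and Hk2 rose, by 1.45 to 3.09 on the log2 scale. The muscle isoforms Pgam2 and Eno3 had log2 fold changes of -0.21 ± 1.40 and -0.28 ± 1.34 and varied with the muscle markers of each library, from 4.01 to 496 CPM for Pgam2 within the rebamipide group. Of 12 genes of the acyl-CoA dehydrogenase family, which acts in the breakdown of fatty acids and, for members such as Ivd, Gcdh and Acad8, of amino acids, 10 were higher and 0 lower, with a median of 2.96, and 0 were lower at an unadjusted p-value under 0.05 or by DESeq2. Acadvl, Acadl and Acadm rose by 4.45 ± 0.37, 4.31 ± 0.44 and 4.10 ± 0.51, and Acad9, an assembly factor of complex I, had a log2 fold change of -0.35 ± 0.16. Differences between these lists, and between them and the 33 genes, were not tested.

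Markers of several cell types moved with the pathway. The summed level of the 33 genes was 2920, 3920 and 4790 CPM with vehicle and 20200, 34500 and 36100 CPM with rebamipide. The summed level of 8 brown adipocyte markers was 218 to 392 CPM and 4880 to 12600 CPM, and 6 of 8 were higher by edgeR, with Elovl3 at -1.45 ± 0.42 and Ppargc1a at 2.30 ± 0.68 not past the threshold. Of 12 general adipocyte markers 8 were higher and 4 did not pass, with log2 fold changes from -0.53 to 3.89. They summed to 2170 to 6040 CPM and 14000 to 26900 CPM. Of 8 endothelial markers 4 were higher and 4 did not pass, with log2 fold changes from -0.19 to 2.87. They summed to 266 to 667 CPM and 1240 to 1770 CPM. The part of these cell types in the rise of the 33 genes was not tested.

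Keratinocyte markers were at lower sums in the third rebamipide library than in any other, and muscle markers varied between libraries of both groups. The summed level of 6 basal keratinocyte markers was 2460 to 3980 CPM with vehicle and 1140, 708 and 131 CPM with rebamipide, and that of 6 suprabasal markers was 838 to 5060 CPM and 5.38 to 1330 CPM. Of the 6 basal markers 2 were at 0 in the third rebamipide library. The mean log2 CPM of the basal markers was 7.14, 6.39 and -1.31 in the rebamipide libraries, so the sum of 131 CPM rested on few of them. Growing hair follicle markers summed to 15900, 7490 and 169 CPM with vehicle and to 787, 0.312 and 0 CPM with rebamipide, and all 8 overlapped between the groups. Fibroblast markers summed to 12000 to 17700 CPM and 1850 to 15100 CPM, and leukocyte markers to 260 to 750 CPM and 166 to 535 CPM. None of the 10 fast skeletal muscle markers passed in either direction, and all 10 overlapped between the groups. Their summed level was 6350, 27000 and 32600 CPM with vehicle and 41800, 8770 and 323 CPM with rebamipide. Slow muscle markers, summed over 5 genes, were at 1.80 to 12.8 CPM and at 256, 118 and 5.99 CPM, and 3 of 5 were higher. With the fast muscle score of each library as a covariate 28 of the 33 genes were higher, and with the slow muscle score 26 were.

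**Figure D5:**
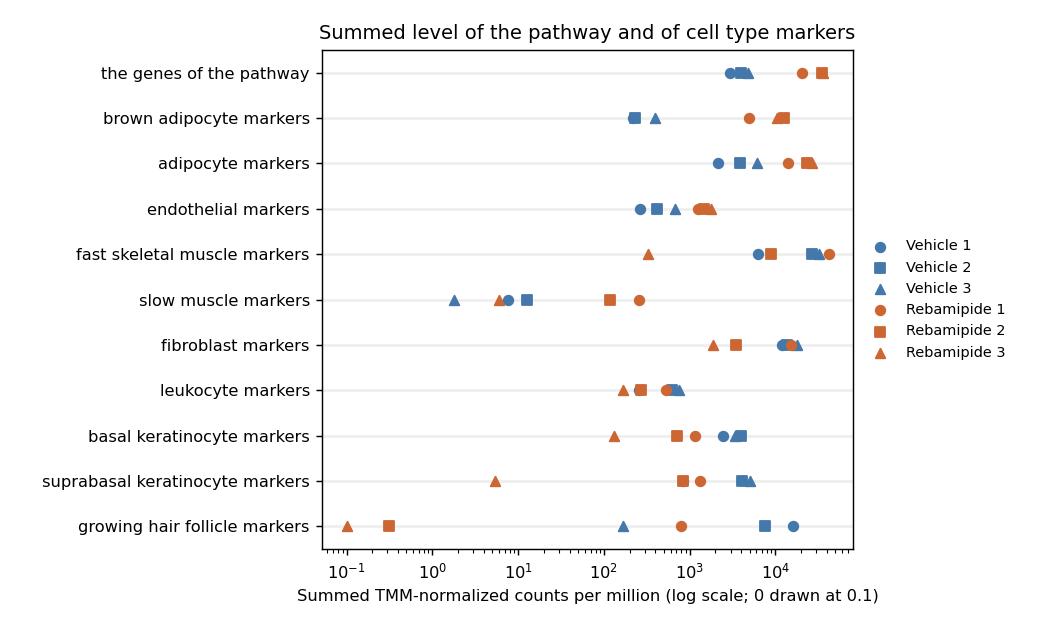
Summed TMM-normalized CPM of the 33 genes and of the marker genes of 10 cell types in each library on a log axis, blue for vehicle and orange for rebamipide, with a sum of 0 drawn at 0.1. The orange points of the pathway, at 20200 to 36100, lie to the right of the blue points as do those of the adipocyte and endothelial markers, and the keratinocyte markers of the third rebamipide library lie far to the left.

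Genes encoded in the mitochondrial genome took 2.59% to 5.36% of counts with vehicle and 13.28% to 21.96% with rebamipide. Of the 33 genes, 23 carried the TCA cycle annotation and 10 the pyruvate metabolism annotation of KEGG in the table. Pdha1, Pcx, Idh3b and Fh1 overlap a gene on the opposite strand (Map3k15, Lrfn4, Nop56 and Kmo), and how strand was handled in counting is not given in the sources used here. The highest count of these partners was 135 to 5218, against 20932 to 36775 for the genes they overlap.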

How the data were processed

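Poly-A RNA-seq libraries of full-thickness dorsal skin (3 vehicle, 3 rebamipide) were analysed from 1 table that pairs gene symbols with values. The counts deposited by the authors are whole, unnormalized numbers of reads per gene, and the FPKM deposited by the authors are these counts divided by gene length and by the library's summed counts. The submitters' processing notes name fastp 0.22.0, HISAT2 2.1.0, HTSeq 0.9.1 and build GRCm39, and the study's methods name DESeq2. The 33 genes, the other gene lists and the tests were chosen with earlier results of these data known.

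Counts were tested in R 4.3.3 with edgeR 4.0.16 (TMM, filterByExpr, quasi-likelihood test, Benjamini-Hochberg adjustment over 14875 genes), after a check on simulated counts. The standard error is the log2 fold change divided by the root of the F statistic. Replicates of a group differed by far more than sampling noise (a chi-square of 79.1 to 713.6 for each degree of freedom). The labels do not name the animal of each library, so p-values measure the spread between these libraries. Limits for a count of 0 cover counting error only. Ratios of FPKM were compared by exact permutation in scipy 1.17.1. Alternatives were DESeq2 1.42.0, limma-voom (limma 3.58.1), RLE, upper quartile and total count scaling, no filter, at least 10 counts in every library, limma on log2(FPKM + 1), a replicate block, muscle scores (mean log2 CPM of the marker genes in a library) as covariates and each library left out in turn. All 33 genes are named; of neighbour lists, the 3 largest and 3 smallest changes are, except for an item that is not reported here. Genes named in the glycolysis and acyl-CoA dehydrogenase lists were chosen after their values were seen. Upstream sequences come from a RefSeq table of GRCm38.p6 and were not mixed with GRCm39 positions.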

Additional observations from a re-analysis of the deposited data

How the results depend on the processing

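No gene of the 33 reversed its direction in any of 29 alternative fits. The number of genes higher by edgeR was 31 with RLE, upper quartile or no filter, 28 with total counts alone or the fast muscle score and 26 with the slow muscle score. It was 30 by limma on log2(FPKM + 1), and leaving out single libraries gave 0 to 31 over edgeR, DESeq2 and limma-voom (17 and 18 by limma-voom without the second vehicle and the second rebamipide library). The number lower was 0 in edgeR as reported, 2 by DESeq2 and by limma on log2(FPKM + 1), 1 by limma-voom, and in edgeR 2 with total counts alone or at least 10 counts in every library and 1 with RLE or either muscle score. It was 0 to 2 without single libraries. At the study's thresholds 2 genes were lower with total counts alone and with limma on log2(FPKM + 1), and 1 to 2 without single libraries. The median log2 fold change was 2.14 with total counts alone, 2.1 on the FPKM scale and 3.24 with the slow muscle score, and 2.57 to 3.14 without single libraries. The difference in the Pdk1 share was -18.1 percentage points from raw counts, which weight long transcripts more, against -8.8 from FPKM. The cause of the other shifts was not tested.

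Of the neighbour lists, DESeq2 called 8 cytosolic counterparts higher and total counts alone called 7 other mitochondrial enzymes, 3 glycolysis genes and 1 carrier higher, and without single libraries the ranges were 0 to 14, 0 to 6, 0 to 6, 0 to 2 and 0 to 10 for other mitochondrial, cytosolic, glycolysis, carrier and acyl-CoA dehydrogenase genes, with 0 in each without the second vehicle or second rebamipide library.

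Libraries with the same number deviated from their group means with correlations of -0.016, -0.038 and 0.003 across genes, so the numbers were not taken as pairs. With a replicate block 31 genes were higher and 1 lower by edgeR, and the sign-flip test of the ratios gave p = 0.25 for 7 ratios and 0.5 for Pcx/Pdha1, an exact permutation test whose smallest value is 0.25. With the whole 300 base window, the longer receptor motif was in 1 window, AGGTCA in 8 and CCGGAAG in 6. With 3 libraries a group and marker content that varies within each group, small differences could not be resolved.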
